A study of Glycine max with 12 samples.

Results

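The 200 loci described here were the soybean seed coat genes that fell most between the youngest and the oldest stage in the standard lines, once loci that differed 2-fold in the same direction in both 100–200 mg isoline pairs had been left out. They were taken from 69145 loci, each represented by the gene model with the highest mean over the 12 libraries. The size of the fall was the difference in log2(RPKM + 1) between 50–100 and 400–500 mg, where RPKM is the number of alignments scaled for the length of the gene model and the total of the library, and the smaller of the differences in Clark standard and Harosoy standard was used. It lay between 3.49 and 7.60 over the 200 loci, with a median of 4.26. The loci were therefore chosen by these values, and their fall in the standard lines is a description. A working name for them, early seed coat genes that are not held up in the mutant, goes against the Harosoy pair. In that pair most were 2-fold higher in the defective library at 100–200 mg. Most were within 2-fold in the Clark pair, but the rule had left out loci that were higher in both pairs. The Clark part was thus largely set by the rule, and nothing is read from it. The 200 loci are called the early loci here.

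The seed coats came from 4 lines. Clark defective (CD) and Harosoy defective (HD) carry a net-pattern mutation, here called Def, in which the seed coat cracks. It affects an unknown gene or genes and had been backcrossed into each cultivar. Clark standard (CS) and Harosoy standard (HS) are their isolines with intact coats. Both Clark lines have the alleles i R T and black seeds, and both Harosoy lines have I r t and yellow seeds. Immature seeds were pooled by fresh weight into stages of 50–100, 100–200 and 400–500 mg, and each line and stage gave 1 library, so that 12 libraries form 6 isoline pairs without replicates. Reads of 75 bp from a GAII were used for 100–200 mg and reads of 100 bp from a HiSeq2000 for the other stages, so the middle stage cannot be told apart from the platform, although both libraries of a pair always shared one. At 100–200 mg the deposited name of the CS library carries a different sequencing tag from those of CD, HD and HS. What the tag stands for is not stated in the sources used here. The Clark pair and the comparison of CS with HS at that stage may thus include a technical difference, which was not tested. The totals recovered from the RPKM steps were 47.5 to 113 M alignments per library. A floor of 3 alignments on a model of median length corresponded to 0.0226 to 0.0539 RPKM, and covers counting error only. Because whole seed coats were used, fewer cells of a type and less RNA per cell cannot be told apart.

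The seed coat grows from the integuments of the ovule. While it is young its cells divide and expand, and later they lay down thick walls, in soybean mainly in the palisade and hourglass layers. Expansion needs primary walls that can be loosened and rebuilt: expansins loosen the contacts between wall polymers, pectin methylesterases remove methyl groups from pectin, and glycosyl hydrolases trim hemicelluloses. Structural proteins rich in proline or glycine are also built into the wall, and lipid-transfer proteins are small secreted proteins that bind lipids.

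The median level of the early loci at 50–100, 100–200 and 400–500 mg was 41.1, 18.4 and 0.419 RPKM in CD, against 42.1, 14.5 and 0.570 RPKM in CS. In Harosoy it was 43.1, 23.1 and 0.311 RPKM in HD, against 37.2, 6.57 and 0.379 RPKM in HS. HS had the lowest median at the middle stage, and HD had the lowest at the oldest stage. The early loci together took 2.62% of the alignments in CD at 100–200 mg, against 1.99% in CS, and 2.52% in HD, against 0.791% in HS. At 50–100 mg the share was 2.97% in CD, against 3.79% in CS, and 3.74% in HD, against 3.69% in HS. At 400–500 mg every library gave less than its own share at the younger stages, with 0.138% in CD, against 0.0724% in CS, and 0.0437% in HD, against 0.0871% in HS.

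**Figure D1:**
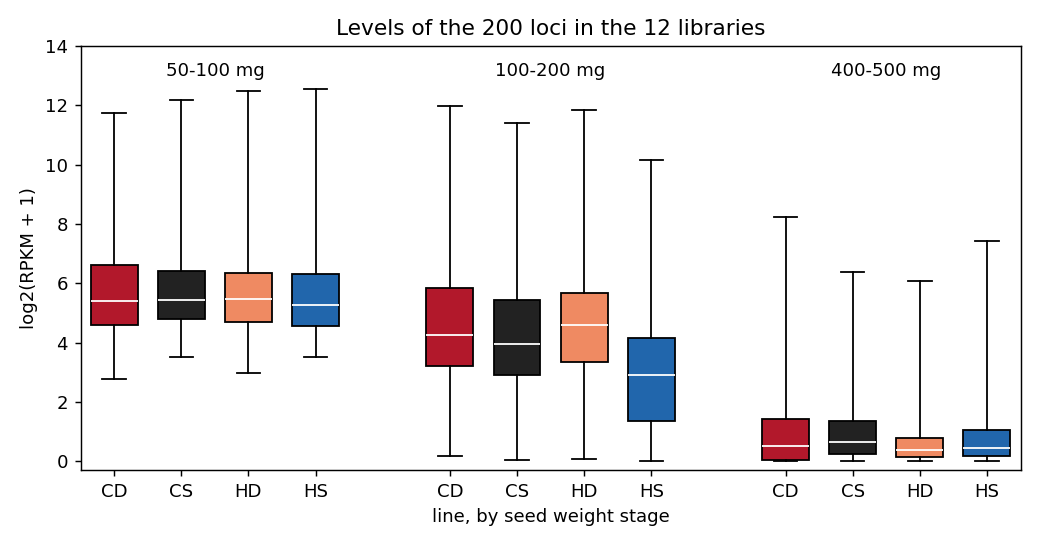
Box plots of log2(RPKM + 1) of the 200 early loci in each of the 12 libraries, grouped by seed weight stage, with boxes from the lower to the upper quartile, whiskers to the lowest and highest locus and a white line at the median. At 100–200 mg the HS median of 6.57 RPKM lay below the medians of 18.4, 14.5 and 23.1 RPKM in CD, CS and HD.

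The locus with the largest fall by the rule was Glyma07g28940 on chromosome 7, for which the study's tables used here hold no entry. In CD it had 733, 1365 and 37.9 RPKM at the 3 stages, against 1299.8, 1418 and 3.85 RPKM in CS. In HD the values were 1495, 1382 and 3.32 RPKM, against 1608, 253 and 7.32 RPKM in HS. Its level stayed high to 100–200 mg in CD, CS and HD, and HS alone was already lower. Among the early loci the subtilisin-like protease Glyma06g02500, of a family of secreted proteases that act on other proteins, had the highest mean level at 50–100 mg. In CD it had 3429.6, 4051 and 299 RPKM at the 3 stages, against 4602, 2712 and 81.7 RPKM in CS. In HD the values were 5664, 3635 and 66.3 RPKM, against 5958, 1136 and 171 RPKM in HS. It was still at 66.3 RPKM or more at the oldest stage, where most early loci were under 1 RPKM. The last loci inside the list were Glyma13g16890, Glyma02g14130 and Glyma17g29060, with falls of 3.50, 3.49 and 3.49, and the first outside were Glyma13g43470, Glyma16g28150 and Glyma13g33830, with 3.49, 3.48 and 3.48. A further 84 loci fell by as much as the last member and were left out as higher in both defective libraries at 100–200 mg, among them the proline-rich wall protein gene PRP1 (Glyma09g12200). None was left out as lower in both, and none belonged to the chromosome 13 block that the rule also removes.

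The defective lines at 50–100 and 400–500 mg were not used to measure the fall, so they show whether it also took place in the mutant. All 200 early loci were higher at 50–100 mg in a limma fit to the 6 defective libraries, with the cultivar as a block. Over all 35375 loci tested 16% were higher and 8.56% were lower at 50–100 mg. The median log2 difference was 4.59 for the early loci and 0.07 for all loci, and the early loci ranged between 2.93 and 8.27. As plain ratios all 200 were 2-fold higher at 50–100 than at 400–500 mg in CD and in HD, beside 13.2% and 20.6% of all loci with 5 RPKM. Their adjusted p-values in the fit lay between 0.00029 and 0.025. Of the 200, 188 reached the minimum of 1 RPKM in 2 libraries without the 50–100 mg libraries. The fit had 2 residual degrees of freedom and the cultivars are the only repetition. The p-values therefore rest on how alike the stage differences were in CD and HD, with the spread moderated over all loci tested. That spread took in the 100–200 mg defective libraries, which the rule had used to leave loci out. With those libraries out of the fit all 200 early loci passed, on 1 residual degree of freedom. Without the CD library of 50–100 mg 185 of 191 early loci passed, and without that of HD 174 of 191.

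The largest difference in the defective lines was that of expansin-A1 (Glyma03g04390), at 8.27 ± 0.38 on the log2 scale (SE, adjusted p = 4.75e-04 in limma). The pectin methylesterase Glyma16g01650 differed by 6.75 ± 0.55 on the log2 scale (SE, adjusted p = 0.00165 in limma). The smallest difference was that of a disease resistance response protein gene (Glyma11g21020), at 2.93 ± 0.21 on the log2 scale (SE, adjusted p = 0.00121 in limma). Next came the pathogenesis-related protein 5 gene Glyma14g08360, at 3.01 ± 0.18 on the log2 scale (SE, adjusted p = 8.25e-04 in limma). The acid phosphatase Glyma06g17860 followed, at 3.098 ± 0.65 on the log2 scale (SE, adjusted p = 0.0235 in limma). This order depends on the 1 RPKM that was added, which shrinks the differences of loci with low early levels. With 0.1 RPKM added these loci differed by 4.43, 5.86 and 4.29, beside a median of 6.12 for the early loci. Glyma07g28940 had the widest error, at 6.34 ± 0.99 on the log2 scale (SE, adjusted p = 0.00965 in limma), and it no longer passed without the HD library of 50–100 mg. Glyma06g17860 no longer passed without the 50–100 mg library of either cultivar.

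The isoline pairs were set side by side at each stage. Loci were counted as higher or lower at a 2-fold ratio where 1 or both libraries reached 5 RPKM, and no test was made because each side is 1 library. At 100–200 mg, 144 of the 172 early loci with 5 RPKM were higher in HD than in HS and 0 were lower, where 6.5% of all such loci were higher and 9.42% lower. In Clark 6 of 169 were higher in CD than in CS and 1 was lower, where 3.68% of all such loci were higher and 1.97% lower. The rule had removed loci that were higher or lower in both pairs, so a locus could be counted as higher in 1 cultivar at most, and nothing is read from these counts. The median log2 ratio of defective to standard was 1.48 in Harosoy and 0.35 in Clark, against 0.01 and -0.01 over all loci. The ratio was above 0 for 196 of the 200 in Harosoy and for 172 in Clark, and the share over all loci was not counted. In the 84 loci left out the medians were 2.35 in Harosoy and 1.38 in Clark. Those loci had been picked as 2-fold higher in both pairs, so high medians were set by the rule.

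By class, 137 early loci were within 2-fold in Clark and higher in Harosoy, and 23 were within 2-fold in both. A further 5 were higher in Clark and within 2-fold in Harosoy, and 25 were under 5 RPKM in all 4 libraries of the stage. The standard libraries of the other stages chose the loci, for a high value at 50–100 mg and a low one at 400–500 mg, so the ratios of those stages are shaped by the rule as well and nothing is read from their counts. At 50–100 mg 9 of 200 early loci were higher in CD than in CS and 10 lower, beside 3.07% higher and 1.2% lower among all loci. In Harosoy 0 of 200 were higher and 0 lower at that stage, beside 0.327% and 0.294%. At 400–500 mg, when few early loci were left above 5 RPKM, 12 of 28 were higher in CD than in CS and 5 lower, beside 1.39% and 2.06%. In Harosoy 0 of 16 were higher in HD than in HS and 8 were lower, beside 5.43% and 5.19%.

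**Figure D2:**
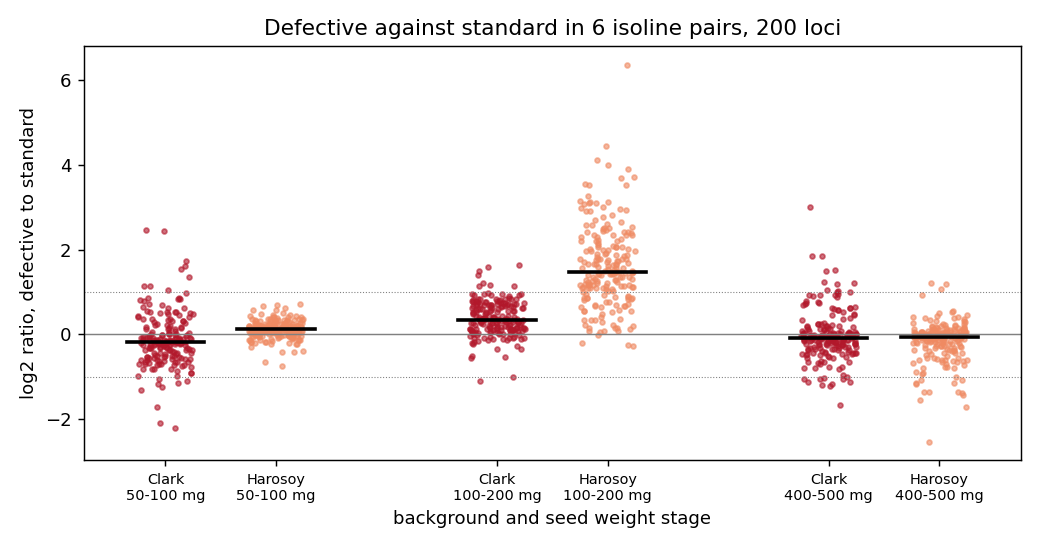
Log2 ratio, defective over standard, after 1 RPKM was added to both, for each of the 200 early loci (points) in the 6 isoline pairs, with the median as a black bar and dotted lines at 2-fold. The Harosoy pair of 100–200 mg has a median of 1.48, while the Clark pair of that stage has a median of 0.35.

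The position of the 100–200 mg library puts each locus on a scale within its line, where 1 is the level at 50–100 mg and 0 that at 400–500 mg, both as log2(RPKM + 1). The median position was 0.80 in CD, against 0.67 in CS, and 0.86 in HD, against 0.46 in HS. The position was higher in HD than in HS for 194 of the 200 loci and higher in CD than in CS for 166. HS had the lowest position of the 4 lines for 160 loci and the lowest level at this stage for 176. These counts were not made over all loci. The rule had used the 100–200 mg pairs and the standard libraries of the other stages, so nothing is read from them. By 100–200 mg 94 loci had fallen 2-fold in CD, against 138 in CS, and 84 in HD, against 179 in HS. Among all loci with 5 RPKM, 6.88% fell 2-fold in CD, against 6.62% in CS, and 3.62% in HD, against 9.53% in HS. A 2-fold higher level at 100–200 than at 50–100 mg was found for 9 early loci in CD, against 6 in CS, and for 4 in HD, against 1 in HS. Among all loci this share was 8.65% in CD, against 8.69% in CS, and 8.81% in HD, against 15.6% in HS. The standard lines themselves differed here, and their libraries of 100–200 mg carry different sequencing tags. CS was at least 2-fold above HS for 130 loci at 100–200 mg, and the median log2 difference of CS and HS was 1.12 at that stage and 0.22 at 50–100 mg. Over all 37303 loci with 1 RPKM in 2 of the 12 libraries the median at 100–200 mg was -0.004. The share of all loci at 2-fold was not counted, so nothing is read from the 130. The 84 loci left out had been picked as higher in both defective libraries of this stage, which also shapes their positions. Their median positions were 1.02 in CD, against 0.87 in CS, and 0.93 in HD, against 0.49 in HS.

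**Figure D3:**
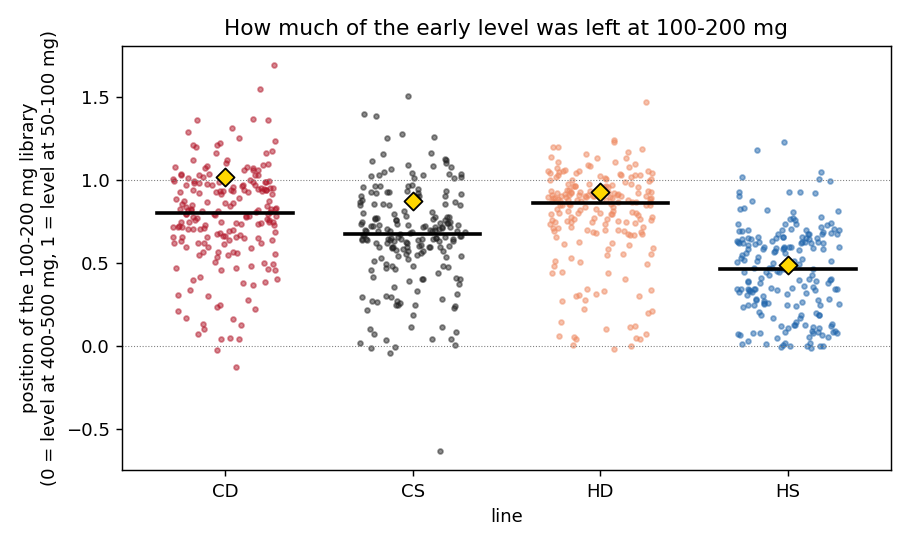
Position of the 100–200 mg library of each early locus in the 4 lines (points, 200 a line), with the median as a black bar. A yellow diamond marks the median of the 84 loci that the rule left out as higher in both pairs of this stage. The HS points centre on 0.46 and those of CD, CS and HD on 0.80, 0.67 and 0.86.

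Other markers were set beside the early loci at this stage, and they did not all rank the lines alike. PRP1 was itself among the loci that the rule left out as higher in both pairs. PRP1, a proline-rich wall protein of the young coat, had 6181 RPKM in CD at 100–200 mg, against 874 RPKM in CS, and 5890 RPKM in HD, against 162 RPKM in HS. PRP2 (Glyma09g12260), which rises late, had 174 RPKM in CD, against 809 RPKM in CS, and 8.68 RPKM in HD, against 3438 RPKM in HS. The library with the lowest early loci was thus also the one with the least PRP1 and the most PRP2. The 6 glycinin and beta-conglycinin loci, storage protein genes that mark cotyledon RNA, summed to 20.4 RPKM in CD, against 85.8 RPKM in CS, and to 408 RPKM in HD, against 453 RPKM in HS. Over all 12 libraries these sums ran between 20.4 and 1092 RPKM, and no library was at 0. The single loci did not move together in Harosoy at 100–200 mg. Glyma03g32020 had 34.8 RPKM in HD against 0.240 RPKM in HS, while Glyma10g39150 had 90.4 RPKM in HD against 301 RPKM in HS. The near-equal sums thus do not show that HD and HS held alike amounts of cotyledon RNA. The part of these marker genes, or of the cells they mark, in the ratios of the early loci was not tested.

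Genes of the cell wall were the largest annotated group by number, but the study's lists differ in size. The 17 cell wall loci were 7.14% of the 238 on that list, while 7.55% of the 53 photosynthesis loci were early loci. The study's tables gave an entry for 52 of the early loci, of which 11 were called unknown, and the other 148 have none, so the groups cover only part of the list. Of the 17 cell wall loci, 13 were higher in HD than in HS at 100–200 mg and 1 was higher in CD than in CS, where 72% of all 200 early loci were higher in HD and 3% in CD. Their median log2 ratio was 1.96 in Harosoy and 0.61 in Clark. Over the whole cell wall list of the study, 51.3% of 236 loci tested were higher at 50–100 mg in the defective lines and 14.4% were lower. The study chose this and its other lists among loci that differed in these libraries, so none is independent of them.

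Expansin-A1 (Glyma03g04390) had 506, 479 and 0.0239 RPKM in CD at 50–100, 100–200 and 400–500 mg, against 395, 270.4 and 1.08 RPKM in CS. The Harosoy lines had 289, 288 and 0.506 RPKM in HD, against 215, 2.502 and 0.369 RPKM in HS. It kept all or most of its early level to 100–200 mg in CD, CS and HD, while in HS it was near its late level, and the ratio of HD to HS was 115.3. A second wall-loosening gene, alpha-expansin 4 (Glyma11g14800), had 13.5 RPKM in HD against 1.86 RPKM in HS at 100–200 mg, and 7.81 RPKM in CD against 4.35 RPKM in CS. The pectin methylesterase (Glyma16g01650) had 304, 93.4 and 3.697 RPKM in CD at 50–100, 100–200 and 400–500 mg, against 509.8, 83.5 and 2.16 RPKM in CS. Harosoy gave 507, 293 and 1.85 RPKM in HD, against 501, 37.2 and 1.498 RPKM in HS. Here CD and CS were close at the middle stage and had both fallen, and HD was 7.88 times HS. The other pectin methylesterase, Glyma07g05150, had 97.8 RPKM in HD against 12.99 RPKM in HS and 34.4 RPKM in CD against 30.7 RPKM in CS at 100–200 mg. Both mannan synthase 7 loci, which make hemicellulose backbones, showed the same order. Glyma11g19490 had 19.7 RPKM in HD against 4.103 RPKM in HS, and Glyma12g08990 had 21.8 RPKM in HD against 3.25 RPKM in HS.

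Enzymes that act on xylan and arabinan were among the early loci too. The glycosyl hydrolase family 10 gene Glyma06g00680 had 21.7 RPKM in HD against 0.988 RPKM in HS at 100–200 mg, and 19.5 RPKM in CD against 11.1 RPKM in CS. The alpha-N-arabinofuranosidase Glyma19g30460 had 49.2 RPKM in HD against 6.38 RPKM in HS, and 72.9 RPKM in CD against 58.7 RPKM in CS. The pectin acetylesterase Glyma16g17120, which removes acetyl groups from pectin, was higher at the middle than at the youngest stage in CD, CS and HD. In CD it had 221, 458 and 28.5 RPKM at the 3 stages, against 362, 486 and 24.7 RPKM in CS. In HD the values were 453, 716 and 12.1 RPKM, against 420.04, 202 and 28.7 RPKM in HS. The structural proteins of the wall followed different courses. The 14 kDa proline-rich protein locus Glyma17g32100 had 36.7 RPKM in HD against 21.3 RPKM in HS at 100–200 mg. The other locus of that name, Glyma14g14220, had 49.4 RPKM in HD against 22.66 RPKM in HS. The glycine-rich protein (Glyma13g28640) had 129, 2.403 and 4.12 RPKM in CD at 50–100, 100–200 and 400–500 mg, against 122, 1.23 and 9.57 RPKM in CS. Its Harosoy values were 70.5, 0.834 and 0.4704 RPKM in HD, against 58.6, 0.745 and 0.674 RPKM in HS. This gene had fallen to a few RPKM or less by 100–200 mg in every line, and its level was higher at 400–500 than at 100–200 mg in CD and CS. The glycine-rich protein Glyma13g31840 fell more slowly. In CD it had 224, 148 and 19.99 RPKM at the 3 stages, against 318, 109 and 9.397 RPKM in CS. In HD the values were 237, 120.01 and 2.73 RPKM, against 200.4, 66.7 and 7.35 RPKM in HS.

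**Figure D4:**
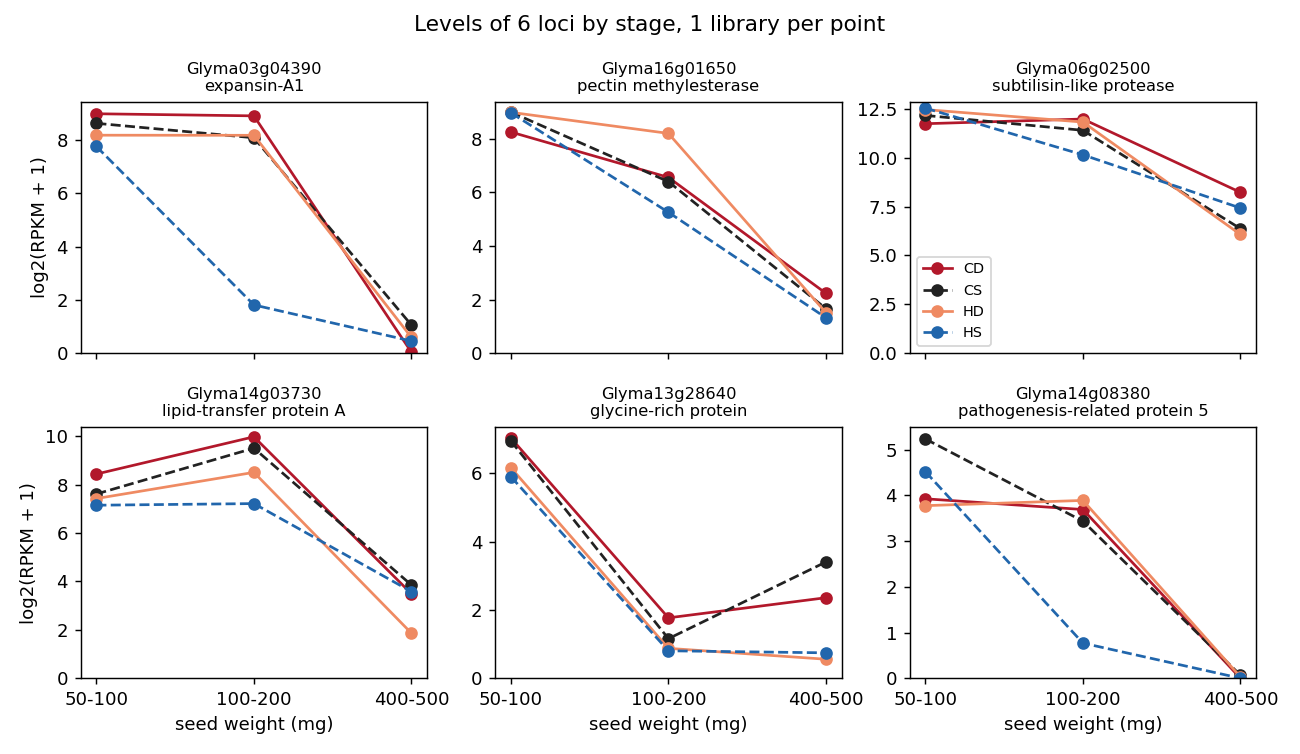
Levels of 6 early loci as log2(RPKM + 1) by seed weight, with 1 library per point, solid lines for CD and HD and broken lines for CS and HS. Expansin-A1 and pathogenesis-related protein 5 were low at 100–200 mg in HS alone, and the glycine-rich protein was low at that stage in all 4 lines.

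Of the 5 loci for lipid metabolism, 3 were higher in HD than in HS at 100–200 mg and 2 in CD than in CS, beside 72% and 3% of all early loci. The 2 in Clark were the neighbours Glyma09g06100 and Glyma09g06130, which may not be separate measurements. Non-specific lipid-transfer protein 1 (Glyma01g32750) had 2093, 1627 and 30.96 RPKM in CD at 50–100, 100–200 and 400–500 mg, against 4468, 1019 and 71.9 RPKM in CS. In the yellow-seeded lines it had 2201, 1825 and 15.7 RPKM in HD, against 2237, 848 and 41.6 RPKM in HS. CS was the highest of the 4 lines at the youngest stage. A non-specific lipid-transfer protein A (Glyma14g03730) had 347, 1011 and 10.3 RPKM in CD at 50–100, 100–200 and 400–500 mg, against 196, 729.6 and 13.5 RPKM in CS. In Harosoy it had 171, 364 and 2.64 RPKM in HD, against 141, 148 and 10.97 RPKM in HS. Its level was highest at 100–200 mg in every line. The neighbouring loci Glyma09g06100 and Glyma09g06130, with the same name, had a ratio to each other between 0.702 and 1.20 in all libraries after 0.1 RPKM was added, so that shared reads cannot be told from like expression. Glyma09g06100 had 269 RPKM in CD against 48.99 RPKM in CS at 50–100 mg, and 124 RPKM in HD against 113.6 RPKM in HS. Lipoxygenase 1 (Glyma07g03910), which adds oxygen to unsaturated fatty acids, had 208 RPKM in HD against 41.7 RPKM in HS at 100–200 mg, and 246 RPKM in CD against 286 RPKM in CS.

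The hormone list held a pair of gibberellin-regulated loci, of a family of small cysteine-rich proteins, and they followed different courses. Gibberellin-regulated protein 4 (Glyma13g08880) had 485, 479.96 and 0 RPKM in CD at 50–100, 100–200 and 400–500 mg, against 218, 243 and 0.942 RPKM in CS. The Harosoy lines had 194, 125 and 0.343 RPKM in HD, against 146.2, 13.7 and 0.293 RPKM in HS. It kept its level to the middle stage in CD and CS and much of it in HD, and HS was the lowest. The other (Glyma19g01590) had 55.9, 1.05 and 0.289 RPKM in CD at 50–100, 100–200 and 400–500 mg, against 24.7, 0.635 and 0.1505 RPKM in CS. Harosoy gave 36.8, 0.491 and 0.0361 RPKM in HD, against 22.1, 0.499 and 0.0548 RPKM in HS. That locus was near 1 RPKM or under it in all 4 lines by 100–200 mg. In the list as a whole 33 of 137 loci tested were higher at 50–100 mg in the defective lines and 30 were lower.

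Of the 4 disease resistance loci 3 were higher in HD than in HS at 100–200 mg, beside 72% of all early loci. Pathogenesis-related protein 5 (Glyma14g08380) had 14.2, 11.9 and 0 RPKM in CD at 50–100, 100–200 and 400–500 mg, against 36.7, 9.83 and 0.0475 RPKM in CS. Its Harosoy values were 12.7, 13.8 and 0.0209 RPKM in HD, against 21.96, 0.704 and 0 RPKM in HS. CD and HD were below their isolines at the youngest stage, and HS was the lowest at the middle stage. Its neighbour Glyma14g08360, with the same name, had 9.47 RPKM in HD against 0.391 RPKM in HS at 100–200 mg, and the disease resistance response protein locus Glyma11g21020 had 8.77 RPKM in HD against 0.147 RPKM in HS. All 4 protein metabolism loci were higher in HD than in HS at 100–200 mg, beside 83.7% of the early loci with 5 RPKM. Besides Glyma06g02500 they were the subtilisin-like protease Glyma16g02150, with 28.9 RPKM in HD against 4.84 RPKM in HS, the Kunitz protease inhibitor Glyma16g33710, with 21.1 RPKM in HD against 0.387 RPKM in HS, and the acid phosphatase Glyma06g17860, with 39.2 RPKM in HD against 3.52 RPKM in HS. Of the 4 photosynthesis loci 1 was higher in HD than in HS. The RuBisCO small chain locus Glyma19g06370 had 187 RPKM in HD against 128 RPKM in HS and 173 RPKM in CD against 134 RPKM in CS, and its ratio to Glyma19g06340 was 0.859 to 0.867 in all libraries after 0.1 RPKM was added, so these loci are not separate measurements. In the carbohydrate list all 4 members were also higher in HD than in HS at 100–200 mg, beside the same 83.7%, such as beta-galactosidase 8 (Glyma13g40200), with 80.5 RPKM in HD against 18.4 RPKM in HS.

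No early locus belonged to the study's lists of transcription, flavonoid and phenylpropanoid, cell division, stress, seed storage or transport genes. As 148 early loci had no entry at all, genes of these kinds may still be among them, and nothing is read from their absence. In the defective lines 21 of 44 cell division loci tested were higher at 50–100 mg and 5 lower, beside 16% and 8.56% of all loci tested, while the transcription list had 35 of 153 higher and 29 lower. Photosynthesis loci were higher in 27 of 53 and lower in 10, and seed storage loci in 11 and 10 of 30.

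The early loci differed in how soon they fell. A run of neighbours on chromosome 20, Glyma20g31600, Glyma20g31610 and Glyma20g31700, fell by 100–200 mg in every line. The last of these (Glyma20g31700) had 374, 9.94 and 0.0517 RPKM in CD at 50–100, 100–200 and 400–500 mg, against 446, 7.41 and 1.45 RPKM in CS. In the yellow-seeded lines it had 338, 8.68 and 0.588 RPKM in HD, against 269, 1.33 and 0.574 RPKM in HS. All 4 lines were far below their early level at the middle stage, and HS was the lowest. Their ratios to each other lay between 0.588 and 0.983 after 0.1 RPKM was added, so that reads shared among them cannot be told from like expression. In all, 32 early loci lay in 14 runs of neighbours by identifier number, 4 of them of 3 loci, on chromosomes 8, 15, 16 and 20. A near-constant ratio was found for 33 pairs that held 50 of the loci. After expansin-A1, the largest log2 ratios of HD to HS at 100–200 mg were those of Glyma16g33140, with 145 RPKM in HD against 5.702 RPKM in HS and 459 RPKM in CD against 239.5 RPKM in CS, and Glyma15g03040, with 67.2 RPKM in HD against 2.93 RPKM in HS and 29.3 RPKM in CD against 24.1 RPKM in CS. The lowest were those of Glyma02g08520 and Glyma02g03680. Glyma02g08520 had 54.8 RPKM in HD against 66.2 RPKM in HS, and Glyma02g03680 had 0.227 RPKM in HD against 0.4700 RPKM in HS and 1.12 RPKM in CD against 3.59 RPKM in CS.

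In the Clark pair of 50–100 mg 4.5% of the early loci were higher in CD and 5% lower, beside 3.07% and 1.2% of all loci. The rule had used the CS library of this stage, so nothing is read from these shares. The 9 that were higher in CD than in CS had a median log2 ratio of 1.55, and in Harosoy the same loci had 0.16. They were the lipid-transfer protein loci Glyma09g06100 and Glyma09g06130, both gibberellin-regulated loci and 5 loci called unknown. One of these, Glyma11g26060, had 216 RPKM in CD against 69.4 RPKM in CS and 65.5 RPKM in HD against 63.4 RPKM in HS. The 10 that were lower in CD than in CS had a median of -1.22, and -0.27 in Harosoy. They included Glyma01g32750, both pathogenesis-related protein 5 loci and Glyma10g37080, called unknown, with 735 RPKM in CD against 2417 RPKM in CS and 1429 RPKM in HD against 1496 RPKM in HS. At 100–200 mg the median of the 9 was 0.93 in Clark and 1.41 in Harosoy, and that of the 10 was 0.21 and 2.73. The loci were chosen by the Clark values at 50–100 mg, and the difference between the cultivars was not tested. Each group also held a pair with a near-constant ratio, Glyma09g06100 with Glyma09g06130 and Glyma09g42070 with Glyma20g00390, so its loci may not all be separate measurements.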

How the data were processed

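Seed coat RNA of 4 soybean lines at 3 seed weights was sequenced as 12 libraries. The authors aligned reads of 75 or 100 bp with Bowtie (version not given in the sources used here) to 78773 gene models, with up to 3 mismatches and 25 alignments a read, and deposited RPKM values, scaled for model length and library. A read could count on several models, so close copies are not separate measurements. Dark seed coats had a modified RNA extraction.

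The members and the gene lists were chosen with earlier results of these data known. From the deposited RPKM, log2(RPKM + 1) was computed with 1 model per locus. Alignments and totals were recovered for 71434 models from the whole steps of the values. The 6 defective libraries were fitted with limma 3.58.1 (trend, R 4.3.3), with cultivar and stage as terms, over loci with at least 1 RPKM in 2 libraries, and Benjamini-Hochberg adjustment over all of them at 0.05. The fit was tested on simulated data. Pairs and positions are descriptions with no test. Named loci are those of highest early level, largest fall, extreme ratio or position, in runs, at the threshold, or annotated in the study's tables, 1 of which was held only in part. Loci that set CD and CS apart at 50–100 mg were named after their values were seen. Alternatives were other pseudocounts, filters, scalings, list sizes and left-out libraries. The identifiers of the reference table do not pair with these models, so gene names come from the study's tables and no sequences are shown. Python 3.11.15 with numpy 2.4.6 and pandas 2.3.3 was used.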

Additional observations from a re-analysis of the deposited data

Results flagged for a closer look

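In 4 early loci the defective library was 2-fold higher than the standard library in 1 cultivar and 2-fold lower in the other, with at least 5 RPKM in either library of both pairs. Opposite signs of any size were found for 89 early loci at 50–100 mg, 28 at 100–200 mg and 92 at 400–500 mg. None of these counts was made over all loci, so nothing is read from them. At 400–500 mg 129 to 159 of the early loci were under 1 RPKM, depending on the library, so many signs rest on low values. At 100–200 mg Glyma09g07310 had 20.4 RPKM in CD against 42.1 RPKM in CS, a log2 ratio of -1.01, and 24.8 RPKM in HD against 12.01 RPKM in HS, a log2 ratio of 0.99. At 400–500 mg Glyma07g28940 had 37.9 RPKM in CD against 3.85 RPKM in CS, a log2 ratio of 3.004, and 3.32 RPKM in HD against 7.32 RPKM in HS, a log2 ratio of -0.95. The subtilisin-like protease Glyma06g02500 had 299 RPKM in CD against 81.7 RPKM in CS, a log2 ratio of 1.86, and 66.3 RPKM in HD against 171 RPKM in HS, a log2 ratio of -1.36 at 400–500 mg. The glycine-rich protein Glyma13g31840 had 19.99 RPKM in CD against 9.397 RPKM in CS, a log2 ratio of 1.01, and 2.73 RPKM in HD against 7.35 RPKM in HS, a log2 ratio of -1.16 at that stage. With 1 library on each side the difference between the cultivars was not tested.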

How the results depend on the processing

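No analysis paired by replicate number could be made, as each line and stage has 1 library. The fit had the cultivar as a block, and the count that moved by over 1.5 times without that block is given here. Of 283 alternative values none reversed and 254 kept their side of the threshold, stayed within 1.5 times as counts, or moved by less than the spread, which for medians was taken between both cultivars of a genotype. Of the early loci 197 to 200 passed in the defective lines, and 174 to 200 with a library left out. Over all loci those higher at 50–100 mg numbered 5670, and 2855 with a minimum of 5 RPKM, and 1265 to 7493 with a library left out. Those lower numbered 3029, 1968 with that minimum, 1955 without the cultivar block, and 553 to 3500 with a library left out. The fewest were found without the HD library of 50–100 mg, and 1845 higher and 964 lower without that of CD. The median difference of the early loci was 6.12 with a pseudocount of 0.1 RPKM and 2.97 with 5 RPKM, instead of 4.59. At 100–200 mg 3% of the early loci were higher in CD, 8% with no minimum, 1% at 3-fold and 7.5% with a pseudocount of 0.1 RPKM in the rule, and 0.5% were lower, 1% with no minimum, with 100 loci or with a pseudocount of 5 RPKM in the rule, and 0% at 3-fold. In HD 0% were lower, and 0.5% with no minimum. On linear RPKM the median positions were 0.53 in CD, against 0.33 in CS, and 0.57 in HD, against 0.13 in HS, in the same order of lines. Of single loci, Glyma06g02500 and Glyma06g17860 no longer passed with no filter or without the 50–100 mg library of either cultivar, Glyma06g17860 also with a pseudocount of 0.1 RPKM, and Glyma07g28940 without the HD library of 50–100 mg. A pseudocount of 0.1 or 5 RPKM in the rule kept 130 and 135 of the 200 loci.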
